A study of Mus musculus with 12 samples.

Results

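The 34 genes described here encode the contractile, calcium handling and energy supply machinery of skeletal muscle, the tissue that forms the outer wall of the mouse oesophagus. They were chosen by gene name, as genes of the sarcomere, of calcium handling and of energy supply, with earlier results of these data known. All 34 were among the 23337 gene symbols counted in each of 12 RNA-seq libraries of C57BL/6 mouse oesophageal epithelium. Tissue was taken at 6 weeks of age, and the epithelium had been pulled off the stroma by mechanical means before RNA was extracted. The 12 libraries fell into 4 genotype groups of 3. Ikkβca+Stat3KO mice carried ED/L2-Cre+ together with the ROSA26-StopFL-Ikk2ca+/L allele and with Stat3L/L. Ikkβca mice carried ED/L2-Cre+ and ROSA26-StopFL-Ikk2ca+/L, and Stat3KO mice carried ED/L2-Cre+ and Stat3L/L. Control mice had both floxed alleles, ROSA26-StopFL-Ikk2ca+/L and Stat3L/L, but no Cre, so they also differ from the other groups in lacking Cre. ED/L2 is a promoter of Epstein-Barr virus that is active in squamous epithelium of the oesophagus, so the alleles recombine in epithelial cells and not, by design, in muscle. Ikk2ca is a constitutively active form of the kinase IKKβ, which activates NF-κB, and Stat3L/L is the floxed gene of the transcription factor STAT3. The labels number the libraries without saying whether each came from a separate mouse, so p-values measure only the spread between these libraries, which may be technical.

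In mice the muscle coat of the oesophagus is skeletal muscle along most of its length, laid down in development over an earlier smooth muscle coat, whereas in humans its lower part is smooth muscle. A skeletal muscle fibre contracts when thick filaments of myosin slide along thin filaments of actin, under the control of troponin, which moves when it binds calcium. Calcium leaves the sarcoplasmic reticulum through the channel Ryr1 and is pumped back by Atp2a1, and Ckm, Pygm, Eno3 and Mb keep the supply of ATP. Fast and slow fibres, and fibres of newborn and adult animals, carry different isoforms of myosin, troponin and light chains.

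Fibre genes of this kind are regulated through short DNA motifs: the E-box bound by MyoD and its relatives, the MEF2 motif bound by the MEF2 factors and the CArG box bound by SRF. The promoters of the 4 most abundant members that the RefSeq promoter table holds, ranked by mean CPM over all libraries, are shown. They are from build GRCm38.p6, from 250 bases before to 50 bases after the transcription start, written 5′ to 3′ on the coding strand. In what follows Acta1 and Ckm kept close to each other across libraries, while Myh4 and Myh8 did not. A link between motifs and levels was not tested. Capitals mark an E-box (CANNTG), a MEF2 motif or a CArG box on either strand. The windows lie at chr8:123894726-123895025 on the minus strand for Acta1, skeletal muscle actin, and on the plus strand at chr7:19410844-19411143 for Ckm, muscle creatine kinase, chr11:67237562-67237861 for Myh4, the fast IIb myosin heavy chain, and chr11:67276874-67277173 for Myh8, the perinatal myosin heavy chain.
Acta1: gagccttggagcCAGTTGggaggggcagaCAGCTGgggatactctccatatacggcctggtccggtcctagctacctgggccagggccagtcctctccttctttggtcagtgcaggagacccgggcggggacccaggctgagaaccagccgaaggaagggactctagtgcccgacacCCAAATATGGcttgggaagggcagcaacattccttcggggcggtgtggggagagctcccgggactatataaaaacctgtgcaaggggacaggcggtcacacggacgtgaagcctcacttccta
Ckm: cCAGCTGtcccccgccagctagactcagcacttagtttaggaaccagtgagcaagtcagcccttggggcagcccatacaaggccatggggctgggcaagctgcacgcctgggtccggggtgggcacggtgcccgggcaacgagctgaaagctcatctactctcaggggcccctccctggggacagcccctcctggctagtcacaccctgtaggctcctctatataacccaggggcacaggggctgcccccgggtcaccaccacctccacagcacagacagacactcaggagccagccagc
Myh4: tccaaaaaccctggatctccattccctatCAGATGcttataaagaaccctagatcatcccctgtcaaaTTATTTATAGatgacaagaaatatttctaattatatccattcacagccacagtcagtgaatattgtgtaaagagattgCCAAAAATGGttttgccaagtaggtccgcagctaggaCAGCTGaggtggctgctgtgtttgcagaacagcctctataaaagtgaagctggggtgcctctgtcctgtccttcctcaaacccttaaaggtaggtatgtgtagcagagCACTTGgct
Myh8: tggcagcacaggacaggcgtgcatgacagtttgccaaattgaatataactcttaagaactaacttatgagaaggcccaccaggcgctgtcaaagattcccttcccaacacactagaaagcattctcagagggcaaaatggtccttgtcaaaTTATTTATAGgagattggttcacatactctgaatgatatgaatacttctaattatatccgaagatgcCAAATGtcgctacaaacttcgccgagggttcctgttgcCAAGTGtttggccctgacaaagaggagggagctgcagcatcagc
The Acta1 window holds 2 E-boxes and 1 CArG box, and the Ckm window 1 E-box. The Myh4 window holds 3 E-boxes, 1 MEF2 motif and 1 CArG box, and the Myh8 window 2 E-boxes and 1 MEF2 motif, whose letters are the same as those of the match in Myh4.

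Across the members, 26 of 34 had an entry in that table, with 32 promoters between them. An E-box was present in 81.3% of these 32 promoters and in 72.3% of all 32851 promoters in the table. CAGCTG, 1 form of the E-box, was present in 46.9% of member promoters and 16.3% of all. The MEF2 motif was present in 18.8% of member promoters and 3.19% of all, and the CArG box in 12.5% and 1.63%. The letters TATAAA, which can overlap a MEF2 motif, were present in 21.9% and 13.6%. These are counts of letters in a window, searched on both strands, and not of sites bound.

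Library depth was 14816468 to 30188363 counts, and levels are given as CPM, the counts relative to the library total after that total is scaled by its TMM factor. The epithelium itself was clear in every library, with 10 squamous markers summing to between 61281 and 197990 CPM. Stat3 gave 169.9, 154 and 194 CPM in Ikkβca+Stat3KO, 158, 222 and 239 CPM in Ikkβca, 139, 154 and 145 CPM in Stat3KO and 174, 157 and 179 CPM in Control. Its log2 fold changes against Control were 0.02 ± 0.15 (SE) in Ikkβca+Stat3KO, 0.28 ± 0.15 in Ikkβca and −0.22 ± 0.15 in Stat3KO. In Ikkβca+Stat3KO against Ikkβca it was −0.26 ± 0.15. A count over the whole gene does not show whether the floxed exons are missing, so it does not check the Stat3KO label. Ikbkb, the gene of IKKβ, gave 89.8, 83.4 and 97.0 CPM in Ikkβca+Stat3KO, 97.7, 84.6 and 94.1 CPM in Ikkβca, 72.4, 68.3 and 61.2 CPM in Stat3KO and 82.6, 60.7 and 59.7 CPM in Control, with a log2 fold change of 0.44 ± 0.14 in Ikkβca against Control (edgeR adjusted p = 0.206). Ikkβca replicate 1 and Stat3KO replicate 3 stood apart by gastric genes: 13 gastric markers summed to 1712 CPM and 113.7 CPM there, 19.1 CPM in Stat3KO replicate 1, and at most 4.34 CPM in the other libraries. Almost all of it was Tff2, a trefoil peptide of gastric mucus, while Gkn2 had 0 counts in all 12 libraries and Atp4b and Pgc had 2 counts each over all of them.

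The skeletal muscle genes varied widely between libraries of the same group. Their summed level was 91.1, 431 and 94.8 CPM in the Ikkβca+Stat3KO libraries, 1489, 999.8 and 129.5 CPM in Ikkβca, 91.0, 1338 and 2668 CPM in Stat3KO and 186, 502 and 50.7 CPM in Control. The highest library, Stat3KO replicate 3, was 52.7-fold above the lowest, Control replicate 3. As a share of all counts, the members made up 0.252% (95% Wilson interval 0.250% to 0.254%) of Stat3KO replicate 3 and 0.00441% (0.00418% to 0.00465%) of Control replicate 3. Intervals of this kind cover counting error only.

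The summed level averaged 206 ± 195 CPM in Ikkβca+Stat3KO, 873 ± 688 CPM in Ikkβca, 1366 ± 1289 CPM in Stat3KO and 246 ± 232 CPM in Control (SD, n = 3 each). The highest library of a group exceeded the lowest 4.73-fold in Ikkβca+Stat3KO, 11.5-fold in Ikkβca, 29.3-fold in Stat3KO and 9.91-fold in Control. All 4 groups overlapped. In bulk tissue, fewer muscle fibres in a sample and less RNA per fibre cannot be told apart.

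**Figure D1:**
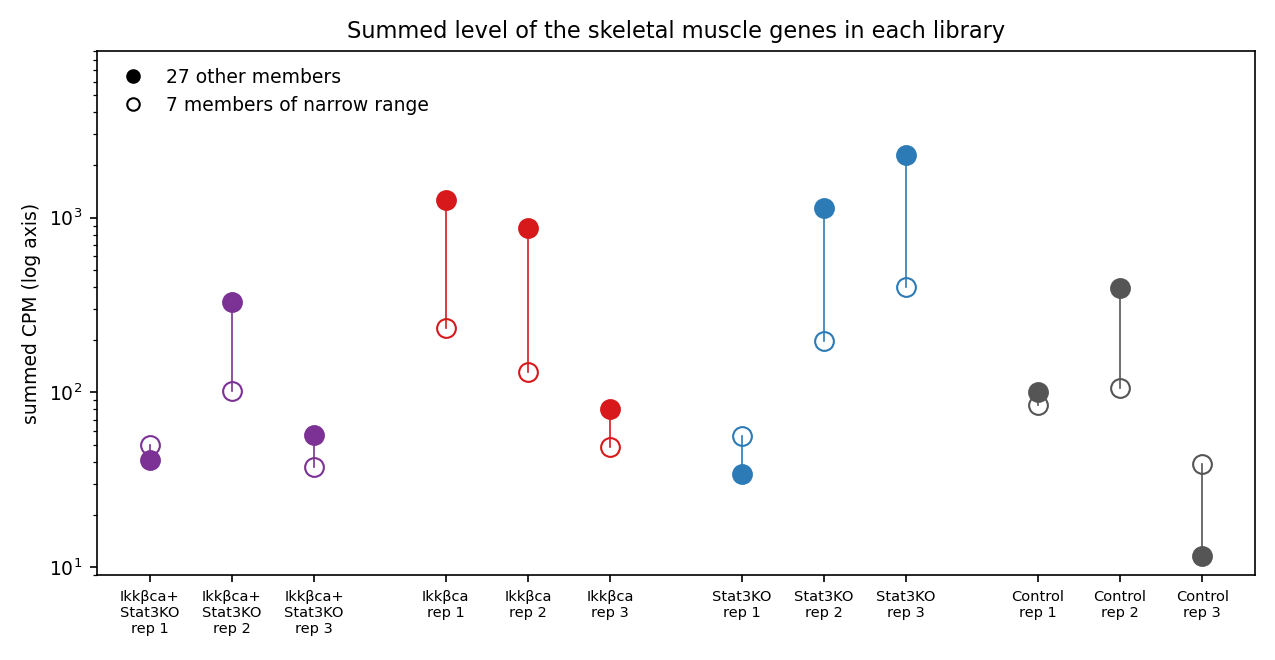
Summed level of the skeletal muscle genes in each of the 12 libraries (CPM, log axis), with 7 members of narrow range (open circles, defined in the text) apart from the 27 other members (filled circles). The 27 members are highest in Stat3KO replicate 3 at 2268 CPM and lowest in Control replicate 3 at 11.6 CPM, and the 7 members lie between 37.5 CPM and 400.0 CPM.

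Most members shared their highest library, and most their lowest, while the full order of the 12 libraries was not compared. Of the 34 members, 27 (79.4%) had their highest level in Stat3KO replicate 3, where 4.29% of all genes tested were highest. Of the rest, Myh8, Mb and Mylk2 were highest in Ikkβca replicate 1 and Xirp2 in Ikkβca replicate 2. Tnni1 was highest in Control replicate 3, Myh7 in Control replicate 2 (5 counts) and Tnnc1 in Stat3KO replicate 1 (7 counts). Control replicate 3 was lowest for 22 of the 34. Over the 12 libraries the SD of log2 CPM had a median of 2.30 over members, and 0.94 when each member was taken relative to the sum of the others. It was smaller in that relative form for 29 of 34 members, and not for Myh7, Tnni1, Tnni2, Tnnc1 and Tnnt1.

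**Figure D2:**
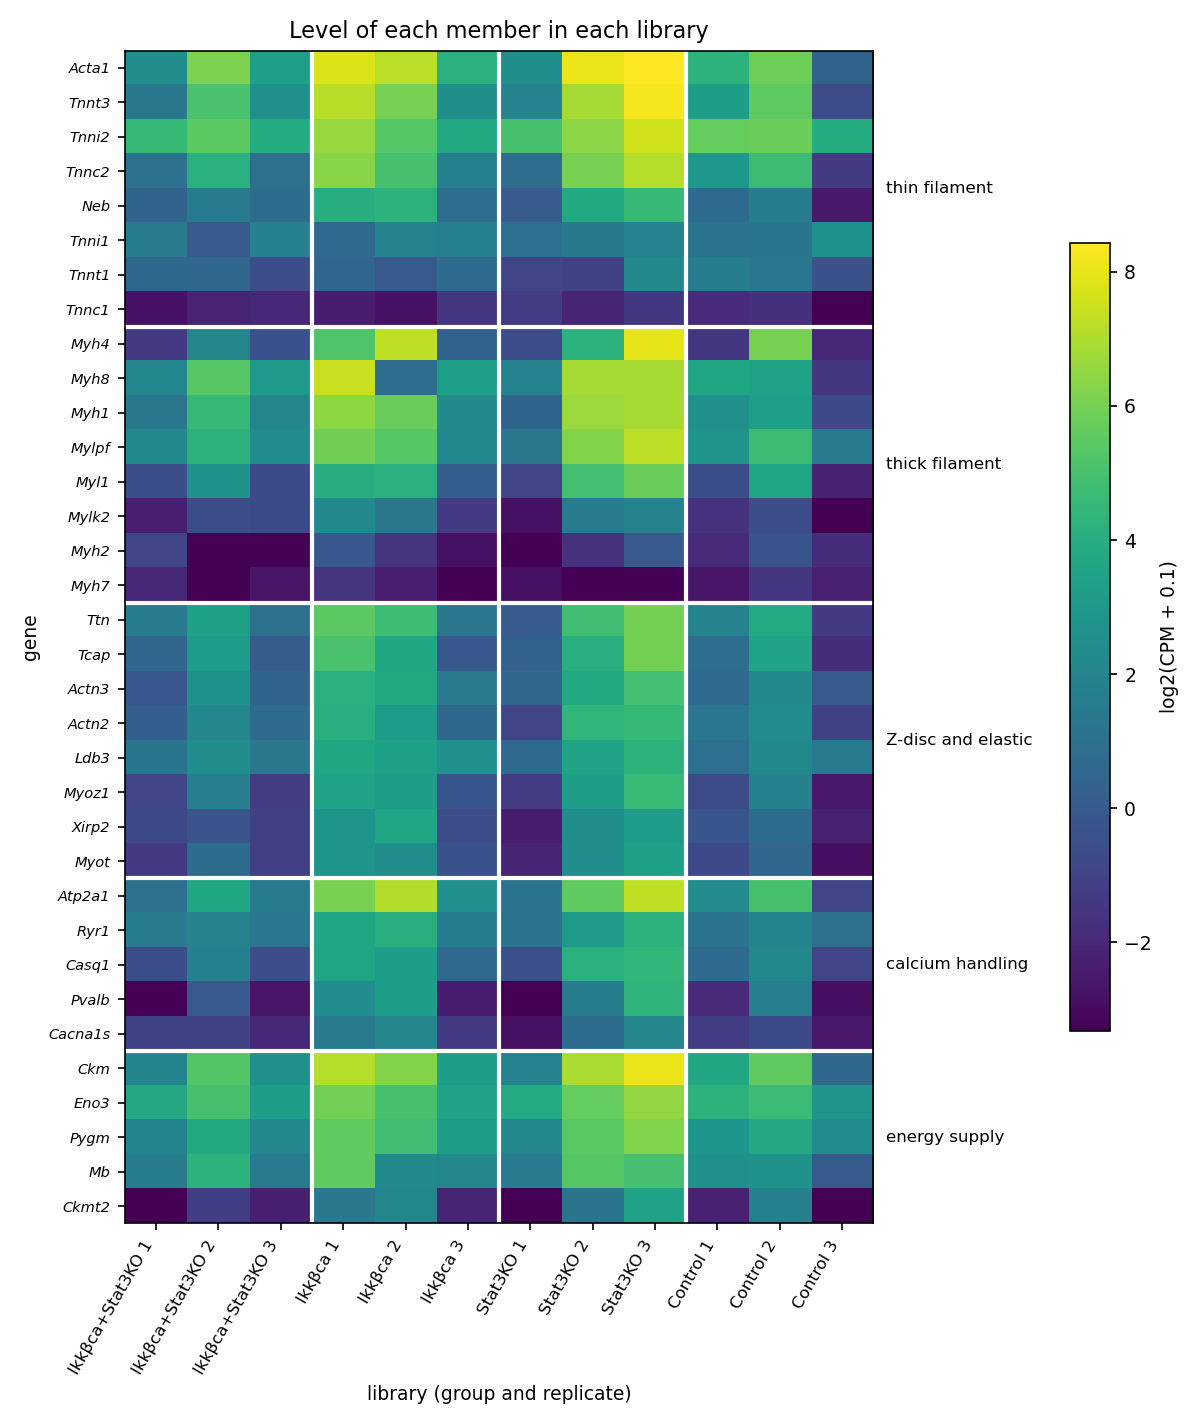
Level of each of the 34 members (rows, grouped by role) in each library (columns), as log2(CPM + 0.1) on the colour scale. Acta1, Ckm and Tnnt3 are brightest in Stat3KO replicates 2 and 3 and in Ikkβca replicate 1, while Tnni1 keeps nearly the same shade in all columns.

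Thin filament genes took 30.9% to 51.0% of member counts. Per kilobase of exon, Acta1 was the most abundant member, with a mean of 63.2 CPM per kb over the 12 libraries, followed by Tnnc2 at 39.5, Tnnt3 at 39.0 and Tnni2 at 36.7 CPM per kb. Acta1 had 5.31, 68.1 and 9.79 CPM in the Ikkβca+Stat3KO libraries, 222, 148 and 17.3 CPM in Ikkβca, 5.63, 268 and 345 CPM in Stat3KO and 19.4, 56.2 and 1.22 CPM in Control. Every group had at least 1 library above 50 CPM, and Ikkβca+Stat3KO, Stat3KO and Control each had at least 1 below 10 CPM. Tnnt3, the fast troponin T, had 2.5, 32.6 and 5.81 CPM in the Ikkβca+Stat3KO libraries, 144, 65.1 and 5.63 CPM in Ikkβca, 3.65, 115 and 311 CPM in Stat3KO and 9.23, 45.9 and 0.533 CPM in Control, and Tnnc2, the fast troponin C that binds calcium, had 2.0, 17.7 and 1.94 CPM in the Ikkβca+Stat3KO libraries, 80.2, 32.4 and 3.22 CPM in Ikkβca, 1.76, 64.6 and 141 CPM in Stat3KO and 7.49, 26.4 and 0.305 CPM in Control. For both, as for Acta1, Stat3KO replicates 2 and 3 and Ikkβca replicate 1 were the 3 highest libraries. Neb, the giant ruler of the thin filament, reached 23.0 CPM in Stat3KO replicate 3 and had 2 counts in Control replicate 3.

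The troponin subunits were mainly of the fast kind. Tnnc2 made up between 84.8% and all of the counts of both troponin C genes. The slow and cardiac Tnnc1 had 0 to 7 counts per library and was 1 of 2 members that did not pass the filter on low counts. Tnni2, the fast troponin I, made up 71.3% to 98.5% of the counts of Tnni1 and Tnni2. Tnnt3 made up 99.7% (95% Wilson interval 99.4% to 99.8%) of the counts of Tnnt1 and Tnnt3 in Stat3KO replicate 2, against 45.2% (95% Wilson interval 29.2% to 62.2%) in Control replicate 3, the library of least muscle RNA.

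Tnni2 did not keep step with the other fast troponins. It had 23.4, 44.4 and 15.2 CPM in the Ikkβca+Stat3KO libraries, 98.5, 39.6 and 13.8 CPM in Ikkβca, 31.8, 83.3 and 189.7 CPM in Stat3KO and 49.5, 54.4 and 15.4 CPM in Control. The lowest library, Ikkβca replicate 3, and the highest, Stat3KO replicate 3, differed 13.7-fold, against 583-fold between the extremes of Tnnt3. Tnni2 lies on chromosome 7 at 142441808 to 142444410 and Tnnt3 at 142498836 to 142516009, both on the plus strand (GENCODE M21 positions on mm10). The ratio of Tnni2 to Tnnt3 counts was 0.608 (exact 95% counting interval 0.557 to 0.664) in Ikkβca replicate 2, 0.610 (exact 95% counting interval 0.585 to 0.637) in Stat3KO replicate 3 and 28.9 (exact 95% counting interval 17.0 to 53.3) in Control replicate 3. Tnni2 was the most abundant member by count in Ikkβca+Stat3KO replicates 1 and 3, Stat3KO replicate 1 and Control replicates 1 and 3. In Ikkβca replicate 3, whose summed level lay below that of Control replicate 1, Acta1 was the most abundant with 403 counts and Tnni2 had 321.

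Tnni1, the slow troponin I, was the member that varied least. It had 2.65, 0.929 and 3.40 CPM in the Ikkβca+Stat3KO libraries, 1.51, 3.72 and 3.40 CPM in Ikkβca, 1.85, 2.59 and 3.60 CPM in Stat3KO and 2.18, 2.25 and 6.21 CPM in Control. Its highest library was Control replicate 3, where the summed level of the members was lowest. Tnnt1, the slow troponin T, ranged from 0.395 CPM in Stat3KO replicate 2 to 4.58 CPM in Stat3KO replicate 3. Acta1 was also highest in Stat3KO replicate 3, at 345 CPM, but had 268 CPM in Stat3KO replicate 2.

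Thick filament genes took 8.0% to 27.4% of member counts, a share that was lowest in Control replicate 3 and Stat3KO replicate 1, the libraries of lowest summed level. Mylpf, the fast regulatory light chain, had 4.71, 19.2 and 5.18 CPM in the Ikkβca+Stat3KO libraries, 58.7, 40.7 and 4.39 CPM in Ikkβca, 2.43, 76.7 and 152 CPM in Stat3KO and 6.60, 26.9 and 2.71 CPM in Control. Its ratio to Acta1 was between 0.253 and 0.529 in 10 of the 12 libraries, and reached 0.887 in Ikkβca+Stat3KO replicate 1 and 2.22 in Control replicate 3, where Acta1 had 32 counts. Myl1, the fast essential light chain, was highest in Stat3KO replicate 3, at 54.8 CPM, and lowest in Control replicate 3, at 0.114 CPM (3 counts). Mylk2, the kinase of the fast light chain, reached 4.73 CPM in Ikkβca replicate 1 and had 0 counts in Control replicate 3.

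The myosin heavy chain isoform that dominated differed between libraries of the same genotype in 3 of the 4 groups. Myh8, the perinatal isoform, had 4.16, 42.0 and 7.75 CPM in the Ikkβca+Stat3KO libraries, 179, 1.74 and 9.67 CPM in Ikkβca, 3.61, 113 and 117 CPM in Stat3KO and 12, 10.7 and 0.267 CPM in Control. Myh4, the adult fast IIb isoform, had 0.300, 3.95 and 0.680 CPM in the Ikkβca+Stat3KO libraries, 36.2, 157 and 1.16 CPM in Ikkβca, 0.586, 18.8 and 259 CPM in Stat3KO and 0.280, 63.9 and 0.152 CPM in Control. The order of the isoforms was opposite in the Ikkβca libraries with most muscle RNA: Ikkβca replicate 1 had far more Myh8 than Myh4, and Ikkβca replicate 2 the reverse. Myh1, the fast IIx isoform, had 2.45, 23.5 and 3.93 CPM in the Ikkβca+Stat3KO libraries, 86.6, 53.4 and 4.86 CPM in Ikkβca, 1.26, 101 and 119 CPM in Stat3KO and 5.93, 9.93 and 0.495 CPM in Control, and its share of the 5 heavy chain genes moved less than that of Myh4 or Myh8.

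As a share of the 5 heavy chain genes, Myh8 led in all 3 Ikkβca+Stat3KO libraries, with 55.3%, 60.5% and 62.4%. It also led in Ikkβca replicates 1 and 3, Stat3KO replicates 1 and 2 and Control replicate 1, with between 48.6% and 65.6%. Myh4 led in Ikkβca replicate 2 with 73.9% (95% Wilson interval 72.6% to 75.2%), in Stat3KO replicate 3 with 52.1% (95% Wilson interval 51.1% to 53.2%) and in Control replicate 2 with 74.7% (95% Wilson interval 72.6% to 76.8%). Myh8 was 0.818% (95% Wilson interval 0.591% to 1.1%) in Ikkβca replicate 2. Thus 1 library in each of Ikkβca, Stat3KO and Control was rich in Myh4, and none of Ikkβca+Stat3KO was. The ratio of Myh4 to Myh8 counts was 90.4 (exact 95% counting interval 65.1 to 129) in Ikkβca replicate 2, 2.21 (exact 95% counting interval 2.10 to 2.32) in Stat3KO replicate 3 and 5.99 (exact 95% counting interval 5.16 to 6.98) in Control replicate 2, and between 0.0234 and 0.571 in the other 9 libraries.

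Control replicate 3 had 32 heavy chain counts in all, so its shares have wide intervals, with Myh1 at 40.6% (95% Wilson interval 25.5% to 57.7%). Myh2, the fast IIa isoform, had 0 to 17 counts per library, and Myh7, the slow isoform of heart and slow fibres, 0 to 5 counts, and did not pass the filter on low counts. Myh2, Myh1, Myh4 and Myh8 lie next to each other on chromosome 11, on the plus strand from 67171027 to 67308634, and are close copies of each other. In GENCODE M21 an antisense transcript runs through part of this cluster, and the strand used in counting is not given in the sources used here, so reads of 1 isoform may in part be counted under another or lost.

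**Figure D3:**
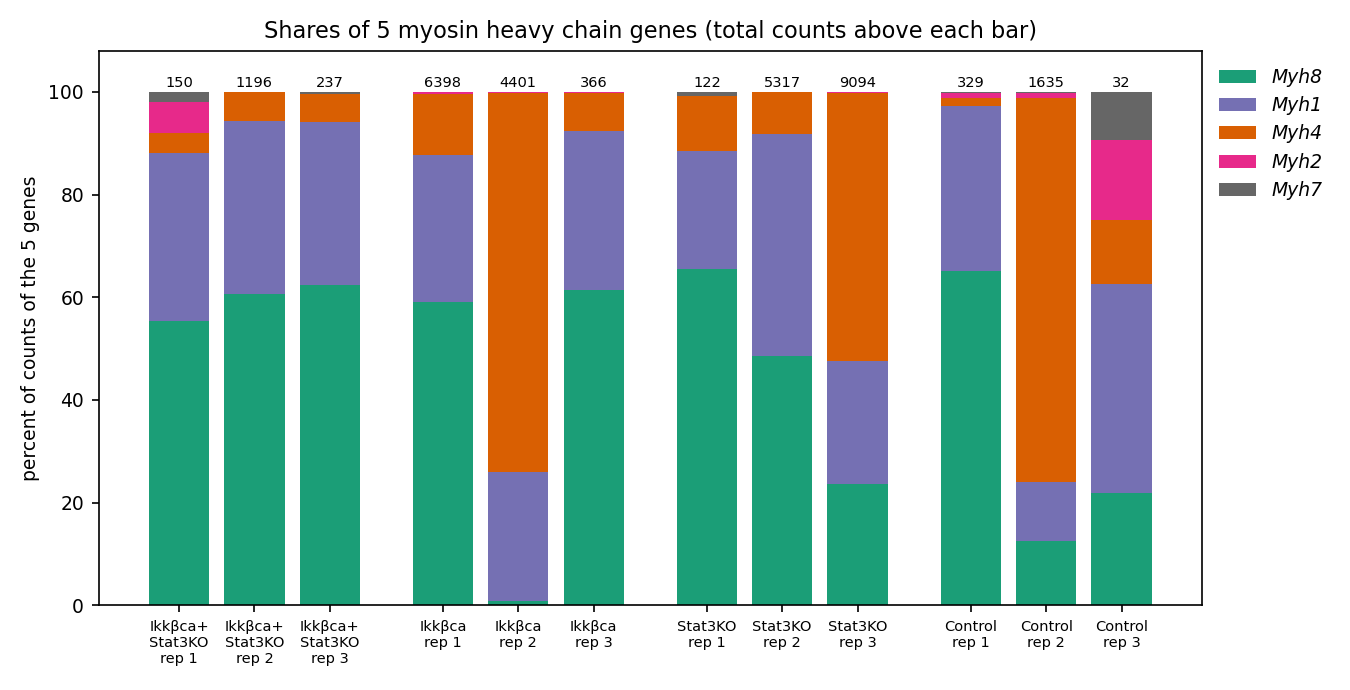
Share of each of 5 myosin heavy chain genes in their summed counts (percent), for each library, with the summed counts above the bars. Orange (Myh4) fills most of the bar in Ikkβca replicate 2 (73.9%), Stat3KO replicate 3 (52.1%) and Control replicate 2 (74.7%), and green (Myh8) leads in 8 of the other 9.

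Other members differed between the same libraries. Myl1 exceeded the slow and cardiac light chain Myl3, which is not a member, most in Ikkβca replicate 2, with a ratio of 72.4 (exact 95% counting interval 30.7 to 224). The ratio was 0.532 (exact 95% counting interval 0.465 to 0.609) in Ikkβca replicate 1, 2.54 (exact 95% counting interval 2.26 to 2.86) in Stat3KO replicate 3 and 3.93 (exact 95% counting interval 2.95 to 5.31) in Control replicate 2. The libraries in which Myl1 led by most were the 3 rich in Myh4. Atp2a1, the calcium pump of fast fibres, was 0.191 of Acta1 by count in Ikkβca+Stat3KO replicate 2, 0.908 in Ikkβca replicate 2 and 0.176 in Stat3KO replicate 2. Mb, myoglobin, which stores oxygen and is rich in oxidative fibres, went the other way between Ikkβca+Stat3KO replicate 2 and Ikkβca replicate 2. It was 0.282 (exact 95% counting interval 0.249 to 0.319) of Acta1 in the former and 0.0321 (exact 95% counting interval 0.0260 to 0.0393) in the latter. In Stat3KO replicate 2, where the Atp2a1 ratio was also low, Mb was 0.149 (exact 95% counting interval 0.138 to 0.159). Opposite courses thus did not hold over all libraries. Pvalb, a calcium buffer of the fastest fibres, was 0.0619 (exact 95% counting interval 0.0532 to 0.0717) of Acta1 in Ikkβca replicate 2, 0.0110 (exact 95% counting interval 0.00850 to 0.0140) in Stat3KO replicate 2, 0.0579 (exact 95% counting interval 0.0520 to 0.0644) in Stat3KO replicate 3 and 0.0567 (exact 95% counting interval 0.0431 to 0.0734) in Control replicate 2.

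Z-disc and elastic genes took 6.6% to 11.8% of member counts. Ttn, the giant elastic protein titin that spans from Z-disc to M-line, had 2.80, 10.5 and 1.94 CPM in the Ikkβca+Stat3KO libraries, 44.8, 27.2 and 2.36 CPM in Ikkβca, 0.946, 28.6 and 63.1 CPM in Stat3KO and 3.69, 14.3 and 0.305 CPM in Control. Tcap, which caps titin at the Z-disc, was highest in Stat3KO replicate 3, at 62.1 CPM, and lowest in Control replicate 3, at 0.191 CPM. The α-actinins that crosslink thin filaments at the Z-disc were both present: Actn3, found in fast fibres, took between 39.1% and 75.0% of the counts of Actn2 and Actn3. Myoz1 (calsarcin), Myot (myotilin) and Xirp2, which bind α-actinin or actin near the Z-disc, all stayed under 24 CPM and were lowest in Control replicate 3 or Stat3KO replicate 1.

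Ldb3, the Z-disc adaptor also called Cypher, separated in Ikkβca against Control and in Ikkβca+Stat3KO against Ikkβca. Its groups overlapped in the other comparisons of 2 groups. It had 2.30, 5.34 and 2.46 CPM in the Ikkβca+Stat3KO libraries, 12.6, 10.4 and 5.98 CPM in Ikkβca, 1.53, 11.4 and 19.1 CPM in Stat3KO and 1.85, 4.6 and 2.78 CPM in Control. All 3 Ikkβca libraries lay above all 3 of Control, and all 3 Ikkβca+Stat3KO libraries below all 3 of Ikkβca. No other member tested separated in either direction in these comparisons. Of all genes tested, 9.34% separated upwards and 8.21% downwards in Ikkβca against Control, and 7.12% upwards and 7.54% downwards in Ikkβca+Stat3KO against Ikkβca, so 1 of 32 members is no more than the background share. Ldb3 is also expressed in other contractile cells. Its log2 fold change was 1.62 ± 0.70 (SE) in Ikkβca against Control (edgeR adjusted p = 0.366) and −1.50 ± 0.70 in Ikkβca+Stat3KO against Ikkβca (adjusted p = 0.519).

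Calcium handling genes took 5.0% to 17.3% of member counts, with the highest share in Ikkβca replicate 2. Atp2a1 had 1.90, 13.0 and 2.88 CPM in the Ikkβca+Stat3KO libraries, 66.5, 134 and 6.02 CPM in Ikkβca, 2.21, 47.1 and 157 CPM in Stat3KO and 4.92, 31.7 and 0.457 CPM in Control. Its level in Ikkβca replicate 2 was above that in Ikkβca replicate 1, though Acta1 was lower there. Ryr1, the calcium release channel, had 2.75, 3.77 and 2.36 CPM in the Ikkβca+Stat3KO libraries, 12.5, 16.7 and 2.97 CPM in Ikkβca, 2.21, 7.73 and 18.4 CPM in Stat3KO and 2.18, 3.82 and 1.94 CPM in Control. Ryr1 had a narrower range than most members, 9.46-fold, and its Ikkβca and Control groups overlapped by Ikkβca replicate 3. Casq1, which stores calcium in the reticulum, had 0.0512 to 0.113 of the counts of Acta1 in 11 libraries and 0.375 (exact 95% counting interval 0.176 to 0.748) in Control replicate 3. Cacna1s, the voltage sensor that opens Ryr1, ranged from 0.0451 CPM in Stat3KO replicate 1 to 3.98 CPM in Stat3KO replicate 3.

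Energy supply genes took 14.4% to 28.5% of member counts. Ckm had 3.85, 38.3 and 5.81 CPM in the Ikkβca+Stat3KO libraries, 139, 75.1 and 9.54 CPM in Ikkβca, 3.61, 124 and 276 CPM in Stat3KO and 13.2, 46.9 and 1.41 CPM in Control. Its ratio to Acta1 stayed between 0.462 and 1.16, although both genes varied over 100-fold. Ckmt2, the mitochondrial creatine kinase of muscle, reached 10.8 CPM in Stat3KO replicate 3 and had 0 counts in 3 libraries. Pygm, muscle glycogen phosphorylase, had 3.90, 14.2 and 4.24 CPM in the Ikkβca+Stat3KO libraries, 46.7, 28.1 and 9.54 CPM in Ikkβca, 4.24, 42.4 and 72.8 CPM in Stat3KO and 7.16, 13.7 and 5.14 CPM in Control. Eno3, the muscle enolase, had 13.6, 32.1 and 9.32 CPM in the Ikkβca+Stat3KO libraries, 60.1, 31.6 and 11.4 CPM in Ikkβca, 14.5, 49.6 and 91.8 CPM in Stat3KO and 19.2, 25.6 and 6.97 CPM in Control. Both were highest in Stat3KO replicate 3, and neither was below 3.90 CPM in any library. Mb had 3.0, 19.2 and 2.88 CPM in the Ikkβca+Stat3KO libraries, 46.6, 4.74 and 4.26 CPM in Ikkβca, 2.70, 39.8 and 30.7 CPM in Stat3KO and 5.82, 6.43 and 0.914 CPM in Control, and was lower in Ikkβca replicate 2 than in Ikkβca+Stat3KO replicate 2, whose summed member level was lower.

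A set of 7 members, chosen after their values were seen, had more than 3 counts in every library and a range under 20-fold: Pygm, Tnni2, Eno3, Ldb3, Tnnt1, Ryr1 and Tnni1. They made up 13.1% of member counts in Ikkβca replicate 2, 62.2% in Stat3KO replicate 1 and 15.0% in Stat3KO replicate 3, against 77.1% in Control replicate 3. The other 27 members summed to 34.4 CPM in Stat3KO replicate 1 and 2268 CPM in Stat3KO replicate 3, against 11.6 CPM in Control replicate 3. By contrast 15 members with counts in every library ranged over at least 100-fold, and 10 of those had more than 3 counts in their lowest library. Pvalb, with 0 counts in Stat3KO replicate 1, ranged at least 148-fold against a floor of 3 counts in that library. Myh4 had the widest range of the 15, 1697-fold, followed by Myh8 with 670-fold and Tnnt3 with 583-fold.

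In Ikkβca against Control, which asks what active IKKβ in the epithelium changes, 0 of the 32 members tested passed the threshold of 0.05 on the edgeR quasi-likelihood p adjusted over 14134 genes, where 0.955% of all genes tested were called. DESeq2, which called 3.13% of all genes, and limma-voom with sample weights, which called 20.7%, also called 0 members. The unadjusted p was under 0.05 for 6 members and for 13.0% of all genes tested. The members' median log2 fold change was 1.90, with 30 of 32 above 0, against a median of 0.0048 over all genes. With the sample weights of limma-voom the members' median was only 0.076, with 18 of 32 above 0. Of the 32, 26 had a log2 fold change above 1, as did 5.55% of all genes tested. Most members shared their highest library, so they are not separate observations in this comparison or in those below. Ryr1 had the smallest adjusted p of the members, 0.286, with a log2 fold change of 1.98 ± 0.72 (SE), Myh1 had 3.14 ± 1.58 and Acta1 2.33 ± 1.60. The members' SE had a median of 1.26 and that of all genes tested 0.223. Without Ikkβca replicate 1, the library richest in Tff2, the median was 1.19, and without Control replicate 2 it was 3.37.

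In Stat3KO against Control, which asks what loss of STAT3 in the epithelium changes, 0 members were called, as were 0% of all genes tested. DESeq2, which called 0.750% of all genes, and limma-voom, which called 0.792%, also called 0 members. The unadjusted p was under 0.05 for 7 members and for 7.50% of all genes tested. The median log2 fold change of the members was 2.52, with 29 of 32 above 0 and above 1, where 1.38% of all genes tested were above 1. No member's groups separated, where 6.96% of all genes tested separated upwards and 6.10% downwards. Myh1 had 3.76 ± 1.62 (edgeR adjusted p = 0.647), Acta1 3.01 ± 1.64 and Ryr1 1.80 ± 0.71, while Tnni1 had −0.40 ± 0.54 and Tnnt1 −0.15 ± 0.83. The median was 1.60 without Stat3KO replicate 3, 3.75 without Control replicate 2 and 1.41 with the sample weights of limma-voom.

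In Ikkβca+Stat3KO against Control, 0 members were called, where 0.884% of all genes tested were, and 0 had an unadjusted p under 0.05, against 11.5% of all genes tested. DESeq2, which called 3.37% of all genes, and limma-voom, which called 11.6%, called 0 members. No member's groups separated, where 7.20% of all genes tested separated upwards and 7.85% downwards. The median log2 fold change was −0.24, with 12 of 32 members above 0. Above 1 was 1 member, Myh8 with 1.24 ± 1.73 (edgeR adjusted p = 0.883), where 2.28% of all genes tested were. Below −1 were 4 members, where 3.04% of all genes tested were, and Myh4 had the lowest value, −3.66 ± 2.49. The direction of the median turned with the libraries used: it was 1.10 without Control replicate 2 and −1.05 without Ikkβca+Stat3KO replicate 2. With the sample weights of limma-voom it was −1.25. The 3 comparisons with Control share its 3 libraries, whose summed levels differed 9.91-fold.

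In Ikkβca+Stat3KO against Ikkβca, which asks what loss of STAT3 changes where IKKβ is active, 0 members and 0% of all genes tested were called by edgeR. DESeq2, which called 0.927% of all genes, and limma-voom, which called 2.62%, called 0 members. All 32 members had a log2 fold change below 0, with a median of −2.22, and 27 were below −1, as were 5.51% of all genes tested. The unadjusted p was under 0.05 for 4 members and for 9.88% of all genes tested. Xirp2 had −3.40 ± 1.29 (edgeR adjusted p = 0.462) and Ryr1 −1.82 ± 0.71. The median was −1.52 without Ikkβca replicate 1 and −3.35 without Ikkβca+Stat3KO replicate 2.

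In Ikkβca+Stat3KO against Stat3KO, which asks what active IKKβ changes where STAT3 is lost, 0 members were called, where 0.460% of all genes tested were, and DESeq2, which called 2.10% of all genes, and limma-voom, which called 1.50%, called 0. No member's groups separated, where 6.06% of all genes tested separated upwards and 6.87% downwards. All 32 had a log2 fold change below 0, with a median of −2.65, and 29 were below −1, as were 2.44% of all genes tested. The unadjusted p was under 0.05 for 8 members and for 8.96% of all genes tested. Pygm had −2.41 ± 0.91 (edgeR adjusted p = 0.424), Tnni2 −1.87 ± 0.79 and Ckm −3.07 ± 1.62. Without Stat3KO replicate 3 the median was −1.79. This comparison and the one before it share the Ikkβca+Stat3KO libraries.

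**Figure D4:**
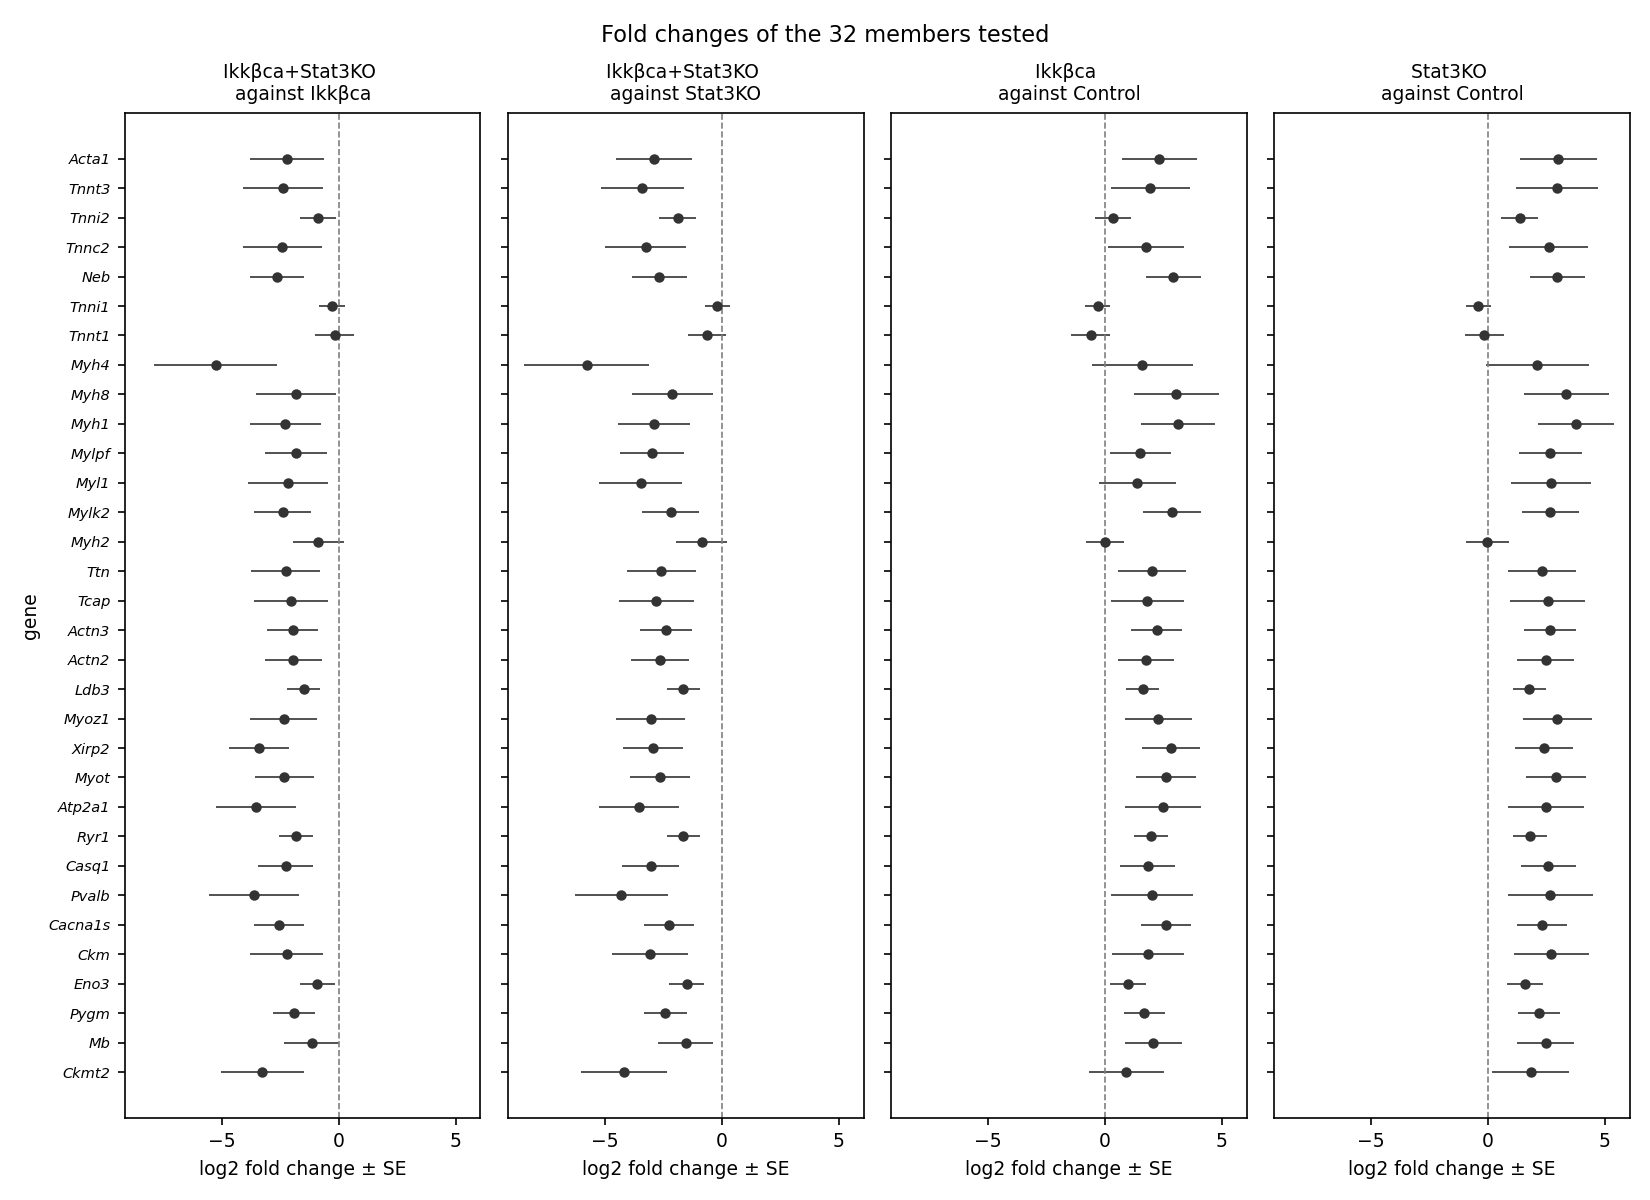
log2 fold change of the 32 members tested (points, with bars of 1 SE from the edgeR fit) in 4 of the comparisons. The points for Ikkβca+Stat3KO against Ikkβca and against Stat3KO all lie below 0 and most of those for Ikkβca and Stat3KO against Control lie higher than 0, with bars several times the median SE of 0.223 of all genes.

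The interaction of the genotypes, the log2 fold change of Ikkβca+Stat3KO beyond the sum of those of Ikkβca and Stat3KO, had a median of −4.86 over the members, with 31 of 32 below 0 and Tnni1 at 0.11 ± 0.78. By edgeR 0 members and 0% of all genes tested were called, DESeq2, which called 0.0425% of all genes, and limma-voom, which called 0%, called 0 members, and every member had an adjusted p of 0.99997. The unadjusted p was under 0.05 for 19 members, where 4.66% of all genes tested had such a p. Ryr1 had −3.62 ± 1.01, Neb −5.59 ± 1.65 and Ldb3 −3.26 ± 0.997. The members follow the same libraries, so they are not separate observations of an interaction. The median was −3.16 without both libraries rich in Tff2, Ikkβca replicate 1 and Stat3KO replicate 3.

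In 6 lists of other muscle genes, which hold none of the 34, the medians in Ikkβca against Control lay nearer 0 than that of the members. Of 36 genes of the sarcomere and Z-disc outside the members, 33 were tested, with a median log2 fold change of 1.76 in Ikkβca against Control and −1.49 in Ikkβca+Stat3KO against Ikkβca, and 0 called in any of the 6 comparisons. Their most abundant genes are also those of other cells: Tpm2 and Tpm1, the tropomyosins that lie along actin, stayed between 460 and 774 CPM and between 246 and 440.0 CPM. Of 20 genes of excitation-contraction coupling 18 were tested, with medians of 0.65 and −0.77 in the same comparisons. In that list Atp2a2, the calcium pump of slow, cardiac and non-muscle cells, had 235.7 to 487 CPM and outnumbered Atp2a1 in every library. Atp2a1 was 31.3% of the counts of both pumps in Stat3KO replicate 3 and 0.109% in Control replicate 3.

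Kcna7, a voltage-gated potassium channel of muscle and heart, was the only gene of these lists called in any comparison. It was 1 of 90 genes tested in these lists, or 1.11%, near the 0.955% of all genes tested that were called in Ikkβca against Control. It had 0.150, 0.290 and 0.314 CPM in the Ikkβca+Stat3KO libraries, 0.946, 1.21 and 0.774 CPM in Ikkβca, 0.631, 0.659 and 0.873 CPM in Stat3KO and 0.224, 0.209 and 0.152 CPM in Control, from 134 counts over all 12 libraries. The 3 Ikkβca libraries lay above the 3 of Control, as did those of 9.34% of all genes tested, and its log2 fold change in Ikkβca against Control was 1.89 ± 0.35 (SE, edgeR adjusted p = 0.0329). In Stat3KO against Control it was 1.49 ± 0.35 and missed the threshold (edgeR adjusted p = 0.309).

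The 6 lists differed in how many of their tested genes were highest in Stat3KO replicate 3, where 4.29% of all genes tested were. These were 17 of 33 other sarcomere and Z-disc genes (51.5%) and 11 of 20 of energy metabolism (55.0%). Of excitation-contraction coupling they were 5 of 18 (27.8%), and of developmental and cardiac-type isoforms 2 of 6 (33.3%). Of myogenic regulation and satellite cells it was 1 of 8 (12.5%), and of the neuromuscular junction 0 of 5. Ikkβca replicate 1, where 9.86% of all genes tested were highest, was the highest library for 5 of those 8 myogenic genes (62.5%). All 20 genes of muscle energy metabolism were tested, 0 were called, and the medians were 0.21 in Ikkβca against Control and −0.26 in Ikkβca+Stat3KO against Ikkβca. The list was led by Aldoa, a glycolytic enzyme of most cells, at 859 to 1331 CPM. Ckb, the brain-type creatine kinase, made up 6.00% of the counts of Ckb, Ckm and Ckmt2 in Stat3KO replicate 3 and 97.1% in Control replicate 3. Of 11 genes of the neuromuscular junction 5 passed the filter and 0 were called. Lrp4, the agrin receptor, was highest of them at 53.0 to 122.0 CPM, and Musk, the kinase that clusters acetylcholine receptors, stayed at or below 0.774 CPM. Of 19 genes of myogenic regulation and satellite cells 8 were tested and 0 called. The most abundant were Mef2d and Mef2a, genes of MEF2 factors, at 26.0 to 48.2 CPM and 16.6 to 33.2 CPM. Myod1, the master regulator of the muscle lineage, had 7 counts over all 12 libraries, Pax7, which marks satellite cells, had 5, and Myf6, a regulator of grown fibres, had 85. Tbx1, needed for branchiomeric muscle and also expressed in pharyngeal tissue, was at 12.3 to 32.8 CPM.

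Of 14 developmental and cardiac-type contractile isoforms 6 were tested and 0 called. Actc1, cardiac actin, made up between 2.68% and 18.3% of the counts of both striated actins and had 0.200, 6.39 and 2.20 CPM in the Ikkβca+Stat3KO libraries, 24.5, 4.06 and 2.06 CPM in Ikkβca, 0.225, 38.1 and 44.1 CPM in Stat3KO and 1.51, 4.97 and 0.152 CPM in Control. Its highest libraries were those of Acta1. The cardiac markers Myh6, with 6 counts over all 12 libraries, and Mybpc3, with 8, were near 0, and the 8 cardiac markers together summed to 32.6 to 59.1 CPM in Ikkβca+Stat3KO, 29.2 to 41.0 CPM in Ikkβca, 19.2 to 37.3 CPM in Stat3KO and 29.7 to 58.0 CPM in Control, mainly from Tnnt2 and Myl7.

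Smooth muscle and skeletal muscle sums had the same order of libraries within Ikkβca+Stat3KO, but not within Ikkβca, Stat3KO or Control. The 12 smooth muscle markers, all of them detected in every library, summed to 1475, 2233 and 1652 CPM in the Ikkβca+Stat3KO libraries, 1309, 1231 and 4735 CPM in Ikkβca, 1293, 1884 and 1088 CPM in Stat3KO and 2258, 2417 and 2910.0 CPM in Control. The lowest level was in Stat3KO replicate 3, the library with most skeletal muscle RNA, and the highest in Ikkβca replicate 3, where the 34 members summed to 129.5 CPM. Adipocyte markers summed to 9.88 to 45.1 CPM in all libraries but Control replicate 2, which had 169 CPM, and nerve and Schwann markers to 131.7 to 233 CPM in all but Control replicate 3, which had 397.9 CPM. Endothelial markers stayed between 29.2 and 168 CPM. Fibroblast markers ranged from 733 to 2708 CPM and leukocyte markers were highest in Ikkβca replicate 1 at 353 CPM. The part of these cells in the muscle results was not tested.

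The gastric sum, almost all of it Tff2, was high in both Ikkβca replicate 1 and Stat3KO replicate 3. These were also the highest libraries of their groups in the skeletal muscle genes. Members summed to 999.8 CPM in Ikkβca replicate 2 and 1338 CPM in Stat3KO replicate 2, where gastric markers summed to 1.74 CPM and 1.49 CPM. Without both libraries rich in Tff2 the members' median log2 fold change was 1.27 in Ikkβca against Control and 1.66 in Stat3KO against Control. In either, 0 members were called.

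**Figure D5:**
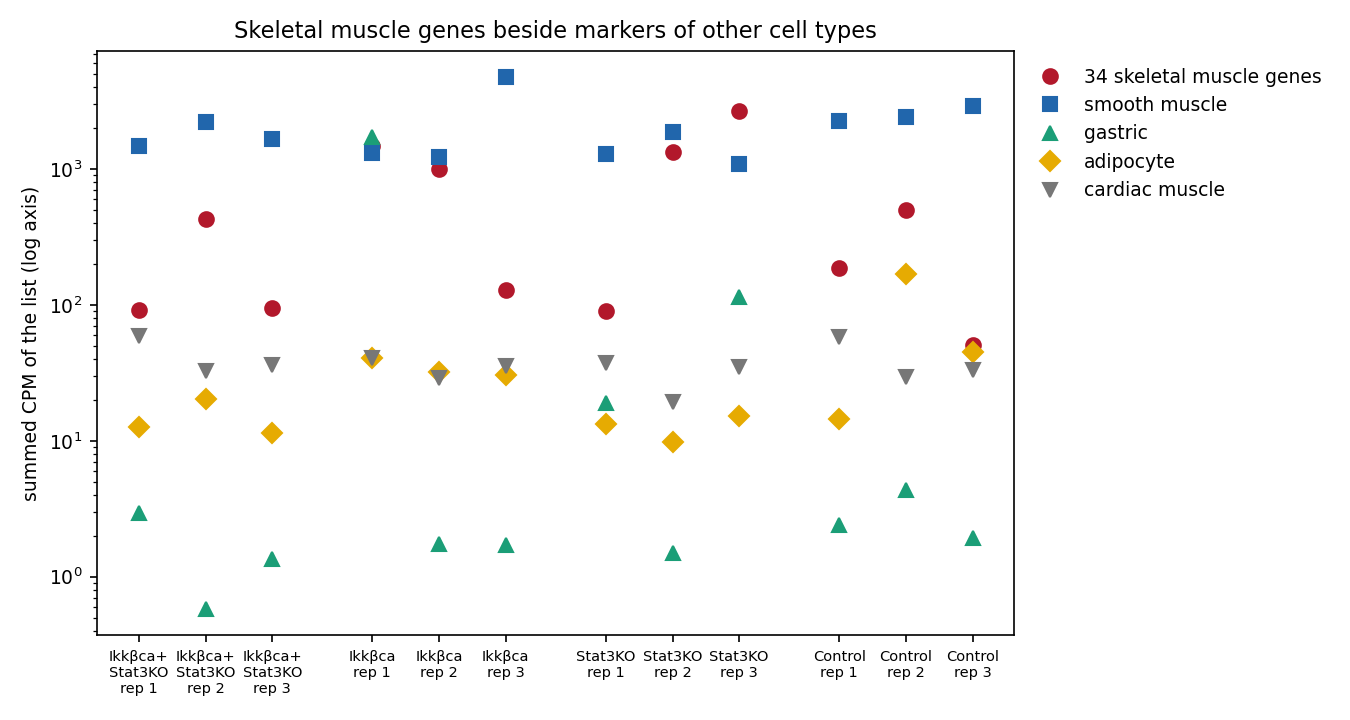
Summed CPM (log axis) of the 34 skeletal muscle genes and of 4 marker lists in each library. Skeletal muscle genes (circles) span 50.7 to 2668 CPM, smooth muscle (squares) 1088 to 4735 CPM, and gastric markers (upward triangles) exceed 100 CPM in Ikkβca replicate 1 and Stat3KO replicate 3.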

How the data were processed

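PolyA RNA of oesophageal epithelium was sequenced in 12 libraries, 3 for each of 4 genotypes. The authors deposited read counts per gene symbol, with no scaling; the tools are STAR as aligner to mm10, HTSeq 0.6.1p1 as counter, cutadapt 1.13 and DESeq2, per the submitters' processing notes. The annotation and strand setting are not given in the sources used here. Each library lists 23337 symbols, every row names a gene, and depth is 14816468 to 30188363 counts. No library repeats another: the closest of all pairs had a chi-square of 26.1 for each degree of freedom.

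Counts were analysed in R 4.3.3 with edgeR 4.0.16: filterByExpr at its defaults kept 14134 genes (32 of 34 members), libraries were scaled with TMM, and 1 robust quasi-likelihood model was fitted to all 4 groups, with a prior count of 2 for log2 values and a Benjamini-Hochberg adjusted p under 0.05 as the threshold. CPM uses the TMM-scaled totals. Alternatives were DESeq2 1.42.0 size factors and test, library totals, no filter, 1 CPM in 3 libraries, and limma 3.58.1 voom with sample weights. Others were no robust estimation, a replicate block, groups compared alone, both libraries rich in Tff2 left out, and each library left out. The pipeline was tested on simulated data.

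The members, gene lists and tests were chosen with earlier results of these data known. All members are named, with up to 4 most abundant genes of each other muscle list and any called; genes named as near 0 or as isoform partners were chosen after their values were seen. A ratio to a library with 0 counts used a floor of 3 counts. Deviations of same-numbered libraries from their group means had r from −0.408 to 0.454 over 18 pairs. Of the 12 libraries, 7 correlated best with those of their own number. Same-numbered libraries deviated together by r over 0.1 in 9 of 18 pairs. Only for Ikkβca+Stat3KO with Stat3KO was this so in all 3 pairs (0.121 to 0.259). The labels give no litter or day, and the main fit paired libraries by number in no comparison. Pairing entered only through the replicate block, an alternative fitted to all comparisons. With it the members' median in Ikkβca+Stat3KO against Stat3KO was −3.0, against −2.65 in the main fit. Exon lengths are unions of GENCODE M21 exons, and for Ttn they include exons that most transcripts skip. Drawings used Python 3.11.15 and matplotlib 3.10.9.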

Additional observations from a re-analysis of the deposited data

How the results depend on the processing

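No member was called in any of the 6 comparisons under any of 22 alternative settings, 12 of which leave out 1 library. The smallest adjusted p of a member in any of them was 0.0774, of Ryr1 in Ikkβca against Control by DESeq2 (log2 fold change 2.02). DESeq2 gave no adjusted p for 6 values, counted over all members and comparisons. Of 4168 values of single members under an alternative, 146 changed direction, all of them uncalled. Leaving out 1 library, the members' median log2 fold change ran from 1.19 to 3.37 in Ikkβca against Control, 1.60 to 3.75 in Stat3KO against Control, −1.05 to 1.10 in Ikkβca+Stat3KO against Control, −3.35 to −1.52 in Ikkβca+Stat3KO against Ikkβca, −3.68 to −1.79 in Ikkβca+Stat3KO against Stat3KO and −6.06 to −3.90 in the interaction. With limma-voom sample weights the median was 0.076 in Ikkβca against Control, 1.41 in Stat3KO against Control and −1.25 in Ikkβca+Stat3KO against Control; the cause was not tested. With the replicate block, which pairs libraries of the same number, 0 members were called and the medians were 2.43, 3.06, −0.13, −2.50, −3.0 and −5.71 in the order of the comparisons above. It changed no call of a member. The groups compared alone give no interaction. Members with fewer than 4 counts in their lowest library have ranges that the counting error sets, and the members' SE ran from 0.54 to 2.17 in Ikkβca against Control, with a median of 1.26.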

Other observations

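Cryab, the small heat shock protein αB-crystallin, which is abundant in striated muscle and lens and is listed with the other sarcomere and Z-disc genes, differed from Acta1 in its order of libraries. It had 362, 14.2 and 366 CPM in the Ikkβca+Stat3KO libraries, 24.7, 476 and 435 CPM in Ikkβca, 17.6, 23.3 and 42.8 CPM in Stat3KO and 19.1, 25.0 and 62.2 CPM in Control. It was high in Ikkβca replicates 2 and 3 and in Ikkβca+Stat3KO replicates 1 and 3, and low in Ikkβca replicate 1 and Ikkβca+Stat3KO replicate 2, while Acta1 was high in Ikkβca replicates 1 and 2 and low in Ikkβca+Stat3KO replicates 1 and 3. Its log2 fold change was 3.13 ± 1.18 (SE) in Ikkβca against Control (edgeR adjusted p = 0.305) and 2.80 ± 1.16 in Ikkβca+Stat3KO against Control (adjusted p = 0.377), and its groups overlapped. The 10 squamous epithelium markers, all of them tested, summed to 151280.0, 61281 and 177220.0 CPM in the Ikkβca+Stat3KO libraries, 74537, 197990.0 and 173040.0 CPM in Ikkβca, 82708, 92848 and 142240.0 CPM in Stat3KO and 77466, 93981 and 196340.0 CPM in Control, and within each group the 3 libraries had the same order by this sum as by Cryab. The part of the squamous markers in the Cryab values was not tested. Cryab was chosen after its values were seen, and it passed no test in these comparisons.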
